A study of Rattus norvegicus with 6 samples.

Results

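The 4C-seq data describe where a gene promoter on chromosome 13 met chromosome 4 in rat cardiac endothelial cells. The members are the EcoRI fragments of chromosome 4 in build rn5: 53318 of the 759990 fragments listed for the 20 chromosomes other than 13, the same fragments in each of 6 libraries. A fragment is a member by its chromosome alone. The SS group (SS/JrHsdMcwi) is the Dahl salt-sensitive rat strain, and the SS13BN group (SS-13BN/Mcwi) carries chromosome 13 of the BN rat on that background. Chromosome 4 is therefore of SS origin in both groups, while the promoter used as the viewpoint comes from a different strain in each. Each group had 3 libraries, named SS 1 to SS 3 and SS13BN 1 to SS13BN 3. In both groups the cells were at passage 2, cells of males and females were pooled, and fixation was in 2% formaldehyde for 10 min at room temperature. The labels name no separate animals or cultures behind the libraries of a strain. P-values from comparisons over libraries therefore describe how far these libraries spread, and that spread may be technical. The binomial tests of windows are made within a library, take fragments as independent and cover counting error only. Captured fragments lay beside each other more often than that, as given below. These tests and the counting intervals may therefore understate that error. The tables hold no expression values, so the cell type could not be checked against marker genes.

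4C-seq fixes chromatin, cuts it with a restriction enzyme and ligates ends that lay close together, so that sequencing outwards from a chosen viewpoint reads what lay near it in the nucleus. Chromosomes occupy separate territories in the nucleus, and a promoter meets its own chromosome far more often than any other. Contacts with other chromosomes are spread thinly, and in many cell types they follow large domains of open or closed chromatin rather than single sites. A fragment of chromosome 4 was here either captured or not captured, as recovered from the deposited scores, and the share of captured fragments in a stretch of chromosome is the measure of contact used below. The sources used here do not say how many reads a fragment needed to count as captured.

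The fragments of chromosome 4 had a median length of 2200 bp, against 2189 bp on the other chromosomes. A single interval of 65.15 Mb, chr4:67977592-133127611, is listed with no EcoRI cut inside it, and it was captured in 0 of the 6 libraries. The next longest fragment of the chromosome had 124734 bp. No genome of rn5 was used here, so whether this interval truly lacks cut sites was not checked. The interval divides the chromosome into 20494 fragments before it and 32823 after it, and nothing below refers to the sequence within it. Each deposited score covered a running window of 501 fragments, which spanned a median of 1.67 Mb of chromosome 4 (1.27 to 2.54 Mb where the window did not reach across that interval).

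The captured share of chromosome 4 lay close to that of the other chromosomes. In the SS libraries 6510, 5230 and 6375 fragments were captured, or 12.2% (95% Wilson interval 11.9% to 12.5%), 9.81% (9.56% to 10.1%) and 12.0% (11.7% to 12.2%) of the chromosome. In the SS13BN libraries the numbers were 5229, 9280 and 4871, or 9.81% (9.56% to 10.1%), 17.4% (17.1% to 17.7%) and 9.14% (8.89% to 9.38%). SS13BN 2 stood above the other libraries, on chromosome 4 as on the other chromosomes, where its captured share was 17.4%. These intervals, like all counting intervals here, cover counting error only. Divided by the captured share of the other chromosomes, chromosome 4 gave 0.988, 0.980 and 1.01 in SS and 0.988, 0.999 and 1.05 in SS13BN, a mean ratio of 1.001 ± 0.0236 (SD, n = 6). Only 2 of 6 libraries lay above 1, and the mean log2 ratio of 0.0014 did not differ from 0 beyond the spread between libraries (exact two-sided sign-flip permutation test, p = 0.969). With an expectation set by fragment length the ratio was 0.999 ± 0.0230. The same test passed a Benjamini-Hochberg adjusted p under 0.05 in 13 of the 20 chromosomes (65%), and chromosome 4 was among those that did not, in the 13th place from the highest ratio.

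**Figure D1:**
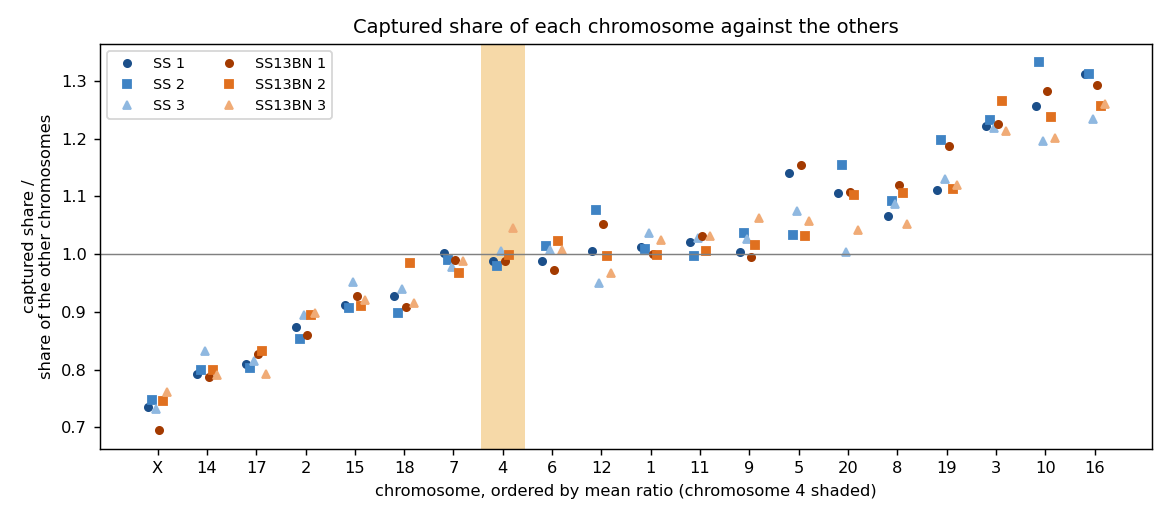
Captured share of each chromosome divided by the captured share of the others (y axis, ratio), with 1 point per library and chromosomes ordered by their mean ratio on the x axis. The points of chromosome 4, shaded, lie between 0.980 and 1.05, on both sides of 1.

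No strain difference in this share was detected. Of all captured fragments outside chromosome 13, 6.94%, 6.89% and 7.06% lay on chromosome 4 in SS, and 6.94%, 7.01% and 7.31% in SS13BN. The means were 6.96% ± 0.0864 and 7.09% ± 0.199 (SD, n = 3 each), and the groups overlapped. SS13BN exceeded SS by 0.126 percentage points (exact two-sided permutation test, p = 0.4, where 0.1 is the smallest p that 3 against 3 libraries can give). The difference was 0.0131 without SS13BN 3 and 0.200 without SS13BN 1.

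Most fragments of chromosome 4 were never captured, and few were captured every time. In 33385 fragments (62.6%) no library had a capture, 11128 (20.9%) were captured in 1 library, 4618 in 2, 1875 in 3, 868 in 4, 630 in 5 and 814 in all 6. The 814 recurrent fragments made up 1.53% of chromosome 4, against 1.48% on the other chromosomes. Fragments captured more often were longer: the median was 1845 bp among fragments never captured, 2296 bp, 3022.5 bp, 4015 bp and 4508.5 bp among those captured in 1, 2, 3 and 4 libraries, 4116 bp in 5 and 4878.5 bp in all 6. A fragment directly beside one captured in all 6 libraries was captured 2.32 ± 0.323 times (SD, n = 6 libraries) as often as the library's average. At 2 fragments away this ratio was 1.29 ± 0.0709, at 5 it was 1.40 ± 0.0720, and at 10 it was 1.15 ± 0.0596.

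Libraries shared captured fragments across strains as well as within them. SS 3 shared 2276 captured fragments with SS13BN 3, which is 46.7% of those of SS13BN 3, and SS 2 shared 2907 with SS13BN 2, which is 55.6% of those of SS 2. By the odds ratio, which allows for the number captured in each library, these same-numbered pairs ranked 1 and 2 of the 15 pairs of libraries on chromosome 4 (9.49 and 8.191), and SS 1 with SS13BN 1 ranked 6 (7.35). The pairs within a strain lay between 5.07 and 8.187. Over all 20 chromosomes the same-numbered pairs held the same ranks. The labels do not say what a shared number stands for, and its part in the contacts that recur was not tested.

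Longer fragments were captured more often up to 16 kb. Among fragments of at most 200 bp, 5.41%, 4.21% and 6.08% were captured in SS and 4.40%, 7.19% and 4.88% in SS13BN. Among those of 8 to 16 kb the shares were 19.8%, 14.2% and 20.7% in SS and 15.1%, 25.2% and 14.4% in SS13BN. Relative to each library's average these classes stood at 0.464 ± 0.0573 and 1.56 ± 0.121 (SD, n = 6), close to 0.456 and 1.47 on the other chromosomes. The 881 fragments over 16 kb, with the interval of 65.15 Mb left out, stood lower, at 1.30 ± 0.153, and that class stood at 1.10 ± 0.101 on the other chromosomes. Because regions differ in fragment length, relative capture is given below with its value against an expectation from 10 length classes wherever that changes the reading.

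**Figure D2:**
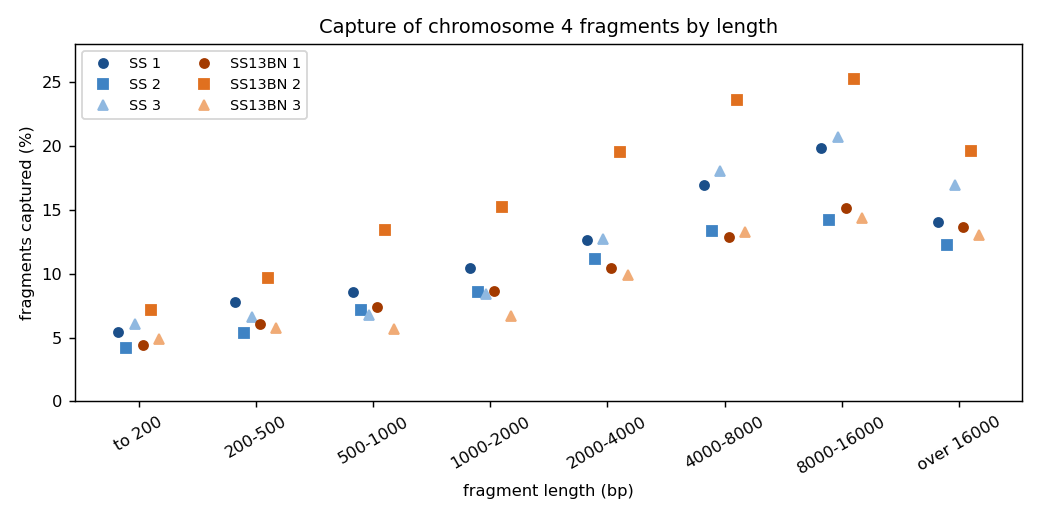
Percentage of chromosome 4 fragments captured (y axis) by class of fragment length in bp (x axis), 1 point per library. In every library the share in the 8 to 16 kb class, from 14.2% to 25.2%, was the highest of all classes up to 16 kb.

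Along the chromosome, zones of high and low capture were marked by a rule on the deposited score in all 6 libraries. The deposited score counts captures in a running window, takes off the count that the chromosome's captured share gives, and divides by the binomial standard deviation. It ran from lows of -7.80, -7.08 and -7.28 to highs of 7.75, 7.79 and 8.00 in SS, and from lows of -6.93, -9.57 and -6.63 to highs of 10.0, 7.99 and 8.87 in SS13BN. In all 6 libraries together, 4168 fragments (7.82%) scored at least 2 and 3030 (5.68%) at most -2, where 8% and 8.2% of the fragments of all 20 chromosomes did. By the SD of relative capture over its 500 kb windows, 0.373, chromosome 4 ranked 14 of the 20 chromosomes. The fragments of chromosome 4 past these scores formed 24 high and 27 low stretches of at least 10 fragments, which made 8 high zones and 11 low zones when stretches less than 2 Mb apart were joined. The zones are called H1 to H8 and L1 to L11 in order along the chromosome. They were chosen on the scores of all 6 libraries, so their recurrence follows from the rule and their levels are a description without a test. Their lengths, from 0.0394 Mb (L1) to 9.11 Mb (H5), depend in part on the running window and on the joining. Joined zones also hold the fragments between their stretches. The high zones held 9.46% of the fragments of chromosome 4 and 161 of its 814 fragments captured in all 6 libraries (19.8%). The low zones held 7.86% of the fragments and 20 of the 814 (2.46%). The zones were chosen on captures in all 6 libraries, so this contrast follows from the rule and lends the zones no support. Median fragment length was 2719.5 bp in the high zones and 1785 bp in the low zones.

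**Figure D3:**
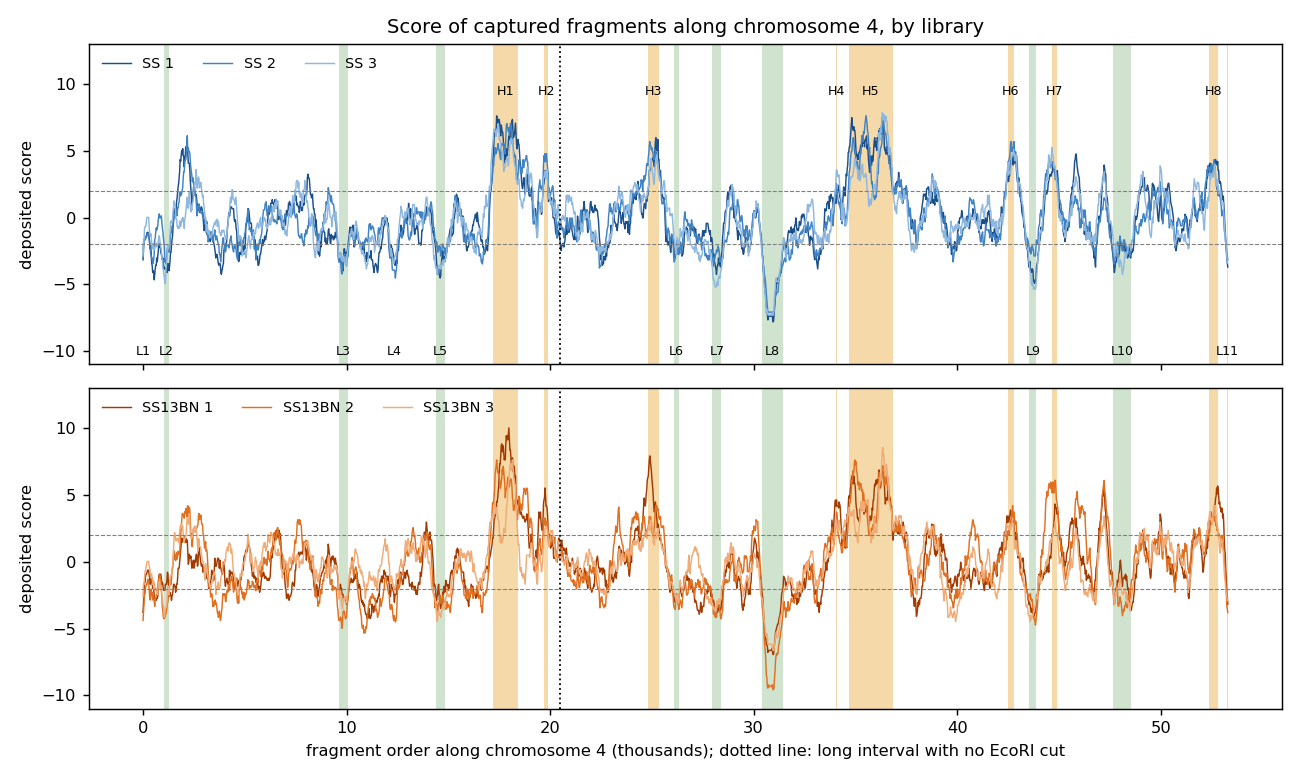
Deposited score (y axis, no unit) against the order of fragments along chromosome 4 (x axis, units of 1000), with the SS libraries above and the SS13BN libraries below, 1 line per library read at every 25th fragment. Orange bands are the high zones H1 to H8, green bands the low zones L1 to L11, dashed lines a score of 2 and -2, and the dotted line the 65.15 Mb interval without a listed cut. The lines of all 6 libraries rise together at H1 and H5 and fall together at L8.

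The broadest high zone was H5, chr4:179945865-189058811, with 2124 fragments over 9.11 Mb. Its captured shares were 20.1%, 15.9% and 17.7% in SS and 16.4%, 25.7% and 14.2% in SS13BN. Relative to each library's average over all chromosomes other than 13, this was 1.63, 1.59 and 1.49 in SS and 1.66, 1.48 and 1.62 in SS13BN, a mean of 1.58 ± 0.0758 (SD, n = 6). All 6 libraries lay in a narrow range well above 1, and the strains overlapped. Against the length expectation the zone stood at 1.49 ± 0.0746. The score peaked at the fragment chr4:186995805-187003345, at 7.77 ± 0.599, with 7.48, 7.34 and 8.00 in SS and 7.64, 7.28 and 8.87 in SS13BN. Of the fragments of H5, 70 (3.30%) were captured in all 6 libraries and 1081 (50.9%) in none.

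H5 was not uniform. In steps of 250 kb, mean relative capture was 2.87 ± 0.974 in the step that begins 2.5 Mb after the centre of the zone and 2.88 ± 0.483 in the step that begins 3.5 Mb after it. In the step that begins at the centre it was 0.738 ± 0.307, and in the step before it 0.892 ± 0.205. These low steps lie between the stretches that end at 183715228 and start at 185417122, a part of H5 only because stretches less than 2 Mb apart were joined. Steps inside the stretches also stood under 1. The step that begins 2.5 Mb before the centre was at 0.840 ± 0.437. Those that begin 2 Mb and 4 Mb after the centre were at 0.917 ± 0.314 and 0.973 ± 0.226. SS13BN 3 reached 4.78 in the first of the named maxima. The steps between the maxima stood at 1.32, 2.02 and 2.34.

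H1, chr4:55599377-60258249, had the highest peak score after H5, with 1194 fragments over 4.66 Mb. Relative capture was 1.798, 1.75 and 1.70 in SS and 1.98, 1.58 and 1.74 in SS13BN, a mean of 1.76 ± 0.134. SS13BN held both the highest and the lowest library. The score peaked at chr4:59016800-59018681, at 6.95 ± 0.778. Against the length expectation H1 stood at 1.68 ± 0.131, above the 1.49 of H5. In H1, 43 fragments (3.60%) were captured in all 6 libraries.

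Of the other high zones, 4 were of similar strength. H3, chr4:147678464-150015336, had a relative capture of 1.43 ± 0.157, H6, chr4:208494637-209947407, of 1.57 ± 0.133, H7, chr4:215850608-216858188, of 1.59 ± 0.0844, and H8, chr4:244666163-246482343, of 1.45 ± 0.0770. Each of these zones lay above 1 in all 6 libraries. Against the length expectation H3 stood at 1.34 ± 0.151, H6 at 1.45 ± 0.124, H7 at 1.52 ± 0.0789 and H8 at 1.37 ± 0.0699. H2, chr4:65028870-65626918, stood at 1.15 ± 0.127 over its 181 fragments, with SS 2 at 0.995. H4, chr4:177590029-177633046, held 14 fragments, of which between 0 and 4 were captured in a library. Both are shorter than the running window, so their scores drew mostly on fragments outside them. The 10 high stretches with the highest peaks lay in H5 (4 stretches), H1 (3), H3 (2) and H6 (1).

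The deepest low zone was L8, chr4:166061544-169214996, with 1025 fragments over 3.15 Mb. Only 38, 21 and 35 of them were captured in SS and 26, 43 and 21 in SS13BN. These are 3.71%, 2.05% and 3.41% in SS and 2.54%, 4.20% and 2.05% in SS13BN. Relative capture was 0.254 ± 0.0353 (SD, n = 6) and lay between 0.205 and 0.300, so no library came near its own average. The score reached its minimum at chr4:167672144-167673316, at -7.55 ± 1.06, with -9.57 in SS13BN 2, the library with the most captures. Fragments of L8 had a median of 1809 bp, and against the length expectation the zone stood at 0.268 ± 0.0375. Of its fragments, 908 (88.6%) were captured in no library and 3 in all 6.

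Capture fell over 2 steps of 250 kb at the first border of L8. In the step of 88 fragments that begins 1.25 Mb before the centre, no fragment was captured in any library. In the step that begins 1.75 Mb before the centre, mean relative capture was 1.04 ± 0.446, and in the step between these it was 0.309 ± 0.135. On the other side mean relative capture was 0 in the step that begins 0.75 Mb after the centre, which holds 45 fragments, and 0.897 ± 0.305 in the next, which still lies within the zone as the running score defines it. The zone ends 1.58 Mb after its centre, in a step with 0.358 ± 0.141, and the steps beyond stood at 0.727 ± 0.255 and 0.635 ± 0.351. Capture thus rose from 0 to 0.897 between neighbouring steps on this side. From 1 Mb to 5 Mb after the centre all steps stayed under 1 on average, between 0.358 and 0.964. In the steps that begin 5 Mb to 1.75 Mb before the centre, means ran from 0.391 to 1.40.

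**Figure D4:**
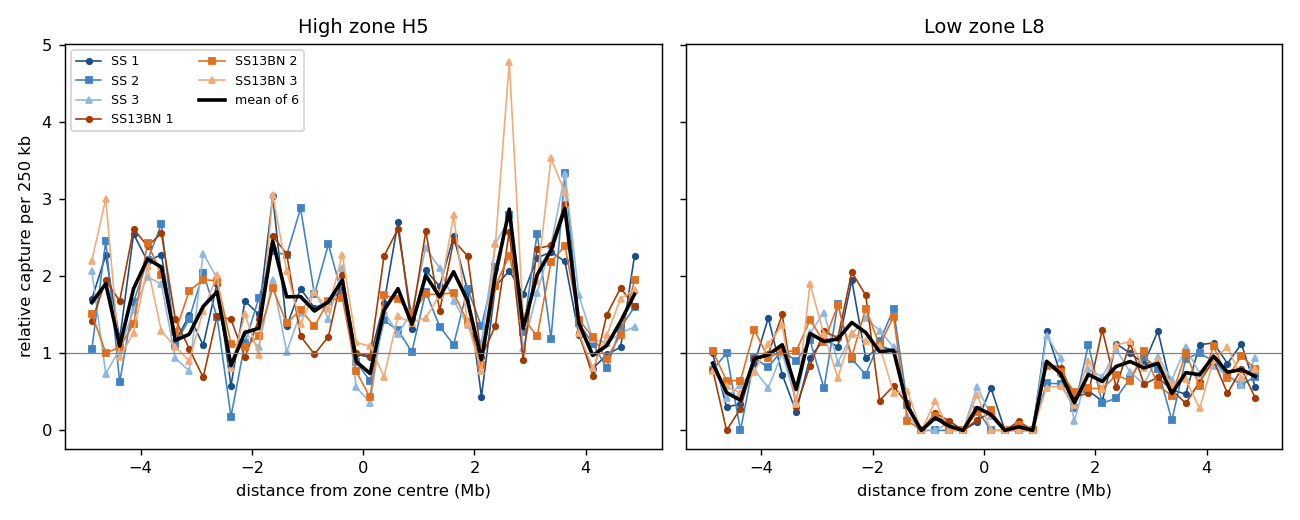
Relative capture in steps of 250 kb (y axis, captured share divided by the library's average) against the distance in Mb from the centre of the high zone H5 (left) and of the low zone L8 (right), 1 line per library and a black line for the mean of 6. In L8 no library exceeds 0.568 from 1.25 Mb before to 1 Mb after the centre, while in H5 the mean runs between 0.738 and 2.88.

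The longest runs of fragments captured in no library lay in L8 as well. They were 180 fragments at chr4:166901066-167455845 (554.78 kb), 173 at chr4:167734764-168289984 (555 kb) and 153 at chr4:166379204-166822979 (444 kb). The next, 152 fragments at chr4:32604403-33134926 (531 kb), lay in L3. Among the 20 chromosomes, chromosome 4 ranked 14 by the number of fragments in its longest run without a capture, and 1773 fragments on chromosome 1 formed the longest.

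Another 8 low zones lay away from the ends of the chromosome. L3, chr4:31957733-33668141, had a relative capture of 0.564 ± 0.0450 over 464 fragments, and no library exceeded 0.609. Its median fragment of 2341.5 bp was longer than that of the chromosome, unlike in the other low zones of more than 100 fragments. L2, chr4:3391079-4214955, stood at 0.390 ± 0.109, and L9, chr4:212381530-213294665, at 0.444 ± 0.131. L5, chr4:46555703-48060172, L6, chr4:152451379-152998757, and L7, chr4:157968227-159173955, stood at 0.547 ± 0.0948, 0.537 ± 0.0559 and 0.542 ± 0.114. With scores recomputed against the length classes, L2, L4 and L6 were no longer low in all 6 libraries over a run of at least 10 fragments, although L2 and L6 still stood at 0.416 and 0.588 of the length expectation. L4, chr4:40296994-40377596, held 26 fragments, of which 0 to 2 were captured in a library. L10, chr4:227159598-229606010, was the shallowest at 0.671 ± 0.0623. It was the only one of the 19 zones in which the strains did not overlap, with 0.639, 0.627 and 0.644 in SS and 0.795, 0.659 and 0.662 in SS13BN. Among 500 kb windows of all chromosomes the strains failed to overlap in 7.8%. The low stretches of L10 hold only 119, 16, 46 and 53 of its 862 fragments. The part between 227475645 and 229159188 belongs to L10 only because stretches less than 2 Mb apart were joined. The stretch of 119 fragments stood at 0.571 ± 0.127, that of 16 at 1.40 ± 0.395, and the others under 1 on average. The strains overlapped in each of these stretches, so the separation holds for the joined zone only. The 10 low stretches with the lowest peaks lay in L9 (3 stretches), L5 (2), L7 (2), L2, L3 and L8.

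The remaining low zones, L1 at chr4:0-39449 and L11 at chr4:248150039-248343840, lie at the ends of the chromosome. There the running window counts positions beyond the end as not captured, which lowers the deposited score by construction. At the last fragment the deposited score was between -4.03 and -3.22, and over the fragments present it was between 0.294 and 1.55. At the first fragment it was between -4.38 and -2.42 as deposited, and between -0.131 and 1.78 over the fragments present. Relative capture of the 74 fragments of L11 was 1.08 ± 0.131, above 1 on average although the zone is low by its score. L1 held 11 fragments, with 1 capture in SS 1 and 0 in the other libraries.

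**Figure D5:**
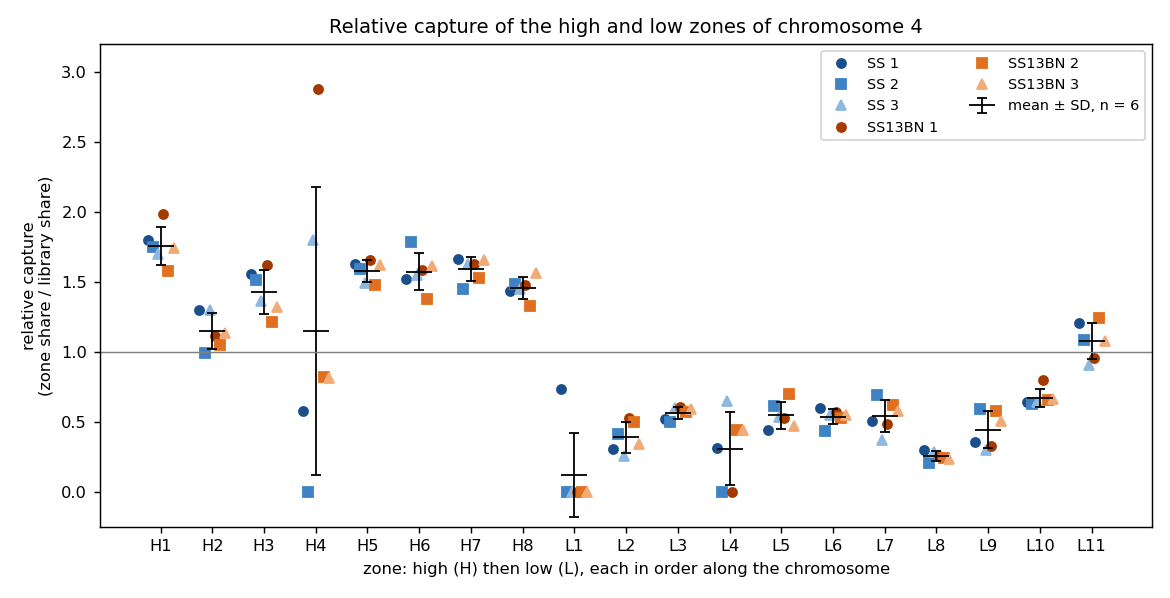
Relative capture (y axis, captured share of the zone divided by the library's average) of the 8 high and 11 low zones of chromosome 4 (x axis), 1 point per library with the mean and SD of 6 in black and a line at 1. Of the high zones, 6 lie above 1 in all libraries, H2 and H4 do not, and of the low zones all but L11 lie under 1 in all libraries.

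In fixed windows of 500 kb, chromosome 4 held few contact windows. A contact window had more captured fragments than the library's share over all chromosomes other than 13 predicts, and its adjusted p had to be under 0.05 in each of the 3 libraries of a strain (exact one-sided binomial test per library, Benjamini-Hochberg over 5332 windows). In SS, 2 of the 368 windows of chromosome 4 were called, where 1.86% of all windows were. In SS13BN 3 were called, where 1.58% of all windows were. None was called in both strains, where 0.713% of all windows were. In single libraries between 11 (SS13BN 3) and 35 (SS13BN 2) windows of chromosome 4 passed, where 174 and 645 of the 5332 windows did. With only 2 libraries required, the SS count was 5, 8 or 7 without SS 1, SS 2 or SS 3, and the SS13BN count 7, 5 or 13 without SS13BN 1, SS13BN 2 or SS13BN 3. Without SS13BN 3, 2 windows were called in both strains, and without SS 2 or SS 3, 1 was. With a library left out, windows were not counted over all chromosomes.

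The windows called in SS were chr4:180500001-181000000 in H5 and chr4:59500001-60000000 in H1. In the first, 36, 32 and 30 of 130 fragments were captured in SS and 32, 50 and 19 in SS13BN, and relative capture was 2.17 ± 0.315 (SD, n = 6). It passed in 5 of 6 libraries, and SS13BN 3, with an adjusted p of 0.205 by the binomial test, kept it from a call in SS13BN. In the second, 35, 23 and 30 of 120 fragments were captured in SS and 25, 33 and 20 in SS13BN, a relative capture of 1.99 ± 0.263, again with SS13BN 3 as the library that did not pass. SS13BN 3 had the fewest captures of all libraries.

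The windows called in SS13BN were chr4:187500001-188000000 in H5, chr4:59000001-59500000 in H1 and chr4:234500001-235000000, which lay in no zone. In the first, 25, 17 and 22 of 90 fragments were captured in SS and 22, 26 and 21 in SS13BN, a relative capture of 2.16 ± 0.371. In the second, 40, 26 and 29 of 149 fragments were captured in SS and 35, 41 and 39 in SS13BN, a relative capture of 2.08 ± 0.543 with SS13BN 3 highest at 2.99. In the third, 27, 25 and 22 of 114 fragments were captured in SS and 26, 34 and 22 in SS13BN, a relative capture of 1.99 ± 0.283. In all 5 windows the strains overlapped, and relative capture exceeded 1.5 in every library. A call in 1 strain alone is not a difference between strains, which was tested separately.

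Depleted windows, defined by the same rule on the low side, were called on chromosome 4 at shares near those of all windows. There were 7 in SS, where 2.68% of all windows were called, 8 in SS13BN, where 2.23% were, and 6 in both strains, where 1.89% were. As shares of the 368 windows of chromosome 4 these are 1.90%, 2.17% and 1.63%. Of the 6 shared windows, 4 follow each other in L8. They run from chr4:166500001-167000000 to chr4:168000001-168500000, with relative capture of 0.116 ± 0.0801, 0.115 ± 0.0818, 0.0812 ± 0.0593 and 0.0254 ± 0.0292. In the last of them, 0, 0 and 1 of 159 fragments were captured in SS and 1, 1 and 0 in SS13BN. A count of 0 of 159 allows a share of up to 1.89%. The other shared windows were chr4:1500001-2000000, at 0.201 ± 0.0557, and chr4:3500001-4000000, which lies in L2, at 0.298 ± 0.110. The only other window among the 5 lowest of the chromosome, chr4:32500001-33000000 in L3, stood at 0.141 ± 0.145 and passed in 5 of 6 libraries.

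Among the 367 windows with at least 50 fragments, relative capture ran from 0.0254 to 2.17 with a median of 1.002. It exceeded 1.5 in 45 windows (12.3%, against 13.6% of such windows on all chromosomes) and lay under 0.5 in 19 (5.18%, against 6.56%). In 74 windows all 6 libraries lay above 1 (20.2%, against 23%) and in 76 all 6 lay under 1 (20.7%, against 24.7%). Between 2 libraries, Spearman's rho of relative capture over these windows ranged from 0.595 to 0.746, with a mean of 0.660 for the 6 pairs within a strain, 0.702 for the 3 same-numbered pairs across strains and 0.667 for the other 6 pairs across strains. The windows of a pair share fragment lengths and cut sites, and neighbouring windows are not independent. Mean relative capture rose with the median fragment length of a window (Spearman's rho 0.605 over 367 windows), and still did so after division by the length expectation (0.510). These correlations are descriptions over windows and have no test.

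No window of chromosome 4 passed the test for a strain difference. With limma on log2(scaled captured fragments + 1) over 5296 windows of all chromosomes other than 13, 0 windows (0%) passed an adjusted p under 0.05, among them 0 of the 366 windows of chromosome 4. At an unadjusted p under 0.05 there were 160 windows in all and 6 on chromosome 4. The median size of the difference on chromosome 4 was 0.17 on the log2 scale, and the median half-width of its 95% interval, for a single window before adjustment, was 0.51. The strains did not overlap in 27 of the 366 windows (7.38%), against 7.8% of all windows.

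Of the 6 windows with an unadjusted p under 0.05, 3 were higher and 3 lower in SS13BN. The 3 with the smallest p were lower in SS13BN, each with a limma adjusted p of 0.999. In chr4:215000001-215500000, 19, 21 and 20 of 120 fragments were captured in SS and 8, 23 and 7 in SS13BN, a log2 difference of -0.83 (SE 0.26). Scaled to each library's average, these are 1.28, 1.75 and 1.40 in SS and 0.672, 1.10 and 0.666 in SS13BN, so the strains did not overlap. In chr4:210500001-211000000 the captured numbers were 22, 21 and 22 of 131 in SS and 12, 23 and 11 in SS13BN (-0.57, SE 0.23). In chr4:49000001-49500000 they were 18, 17 and 16 of 133 in SS and 9, 18 and 7 in SS13BN (-0.67, SE 0.27).

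Over 10 equal parts of its length, chromosome 4 was captured unevenly. Relative to the rest of the chromosome, part 2 stood at 0.839 ± 0.0301 (SD, n = 6), part 3 at 1.25 ± 0.0516, part 7 at 0.764 ± 0.0341 and part 8 at 1.29 ± 0.0555. H1 lies in part 3, L8 in part 7 and H5 in part 8. Part 1 stood at 0.936 ± 0.0386, under 1 in 5 of 6 libraries (log2 ratio -0.10, exact sign-flip permutation p = 0.0625). Part 10 stood at 1.06 ± 0.0328, above 1 in 6 of 6 libraries (log2 ratio 0.09, exact sign-flip permutation p = 0.0312, the smallest that 6 libraries can give). Against the length expectation part 10 stood at 1.03 ± 0.0322, with a log2 ratio of 0.0458. Adjusted over these 2 tests both p-values were 0.0625, so neither passed. Parts 4 and 5 lie wholly in the interval without a listed cut and have no value. Fragments before that interval stood at 0.982 ± 0.0368 of the library's average and those after it at 1.01 ± 0.0147.

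Captured fragments of chromosome 4 also lay beside each other more often than the average share gives. The neighbour of a captured fragment was captured 1.798, 2.06 and 1.93 times as often as the chromosome's average in SS and 2.11, 1.53 and 2.29 times as often in SS13BN, a mean of 1.95 ± 0.265 (SD, n = 6). The ratio was lowest in SS13BN 2, the library with the highest captured share. At 2 fragments apart it was 1.20 ± 0.0157, at 10 it was 1.11 ± 0.0350 and at 1000 it was 0.996 ± 0.0626. For direct neighbours the median of the other chromosomes was also 1.95, and 9 of the 19 had a higher mean ratio than chromosome 4. That number was 15 at 2 fragments apart, 10 at 5, 16 at 10, 10 at 50 and 9 at 250. The longest runs of neighbouring fragments captured in at least 5 libraries each held 4 fragments, at chr4:182884406-182903893 in H5 and at chr4:205595676-205605053 outside the zones. The other 8 of the 10 longest held 3 fragments. Of these, chr4:55774478-55782266 and chr4:58366558-58375623 lay in H1, and the remainder, at chr4:21919591-21926790, chr4:50213083-50224563, chr4:138356656-138365365, chr4:147515874-147529973, chr4:175887792-175895341 and chr4:176149817-176163628, lay outside the zones.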

How the data were processed

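The authors deposited 1 table per library with a score per EcoRI fragment in rn5, and the submitters' processing notes name CASAVA 1.8. Sources used here do not give the aligner, read filter or scoring program. Outside chromosome 13, each deposited score was found to be the captured count of a 501-fragment running window, less its expectation from the chromosome's captured share, over its binomial standard deviation. Windows were filled with uncaptured positions at chromosome ends. Solving these equations gave captured states that rebuilt 100% of windows in every library. Coordinates are those of the tables (closed intervals, the first from 0) and may lie 1 base from a browser's.

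States were summed per 500 kb window by fragment midpoint. Strains were compared with limma 3.58.1 (R 4.3.3, trend) on log2(captured scaled to the mean library total + 1), for windows with a mean of at least 1. Such a fold understates changes of low windows. State recovery, the limma comparison and the contact-window calls were run on simulated data. For the contact-window calls, captures were drawn independently of each other. That simulation could not show how the calls behave where captured fragments lie beside each other, as they did here. Other values used Python 3.11.15 with numpy 2.4.6, pandas 2.3.3 and scipy 1.17.1. Windows and stretches were named by rule: all windows called in both strains, up to 5 in 1 strain, the 5 lowest with at least 50 fragments, the 3 smallest p, up to 10 high and 10 low stretches, and the 10 longest runs in at least 5 libraries. The depleted windows, the runs without a capture and the joining of stretches were added after seeing the data. The members and lists were chosen with earlier results of these data known. Same-numbered libraries deviated together over all windows (r = 0.171, 0.171 and 0.119). On chromosome 4 alone r was 0.103, 0.161 and 0.0389, and SS 1 with SS13BN 3 reached 0.0553. The labels give the number no meaning. Pairing by number was therefore run only as an alternative, and the main tests were unpaired. No genome or gene annotation of rn5 was used here, so windows are not placed in genes and no sequence is shown.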

Additional observations from a re-analysis of the deposited data

How the results depend on the processing

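No alternative gave a strain difference in any window of chromosome 4. With other pseudocounts, filters, scalings and window sizes, or with the deposited score, 0 windows passed. The same held without each library in turn and with the replicate block. With that block, limma gave an unadjusted p under 0.05 in 11 of 366 windows, against 203 of 5296 over all chromosomes other than 13. The exact paired sign-flip permutation test of the share gave p = 0.25 for the difference of 0.126 percentage points; SS13BN was higher in 3 of 3 pairs, and 3 pairs allow no smaller p, so this test could not pass. The replicate block in limma changed no call. The log2 ratio of chromosome 4 to the others, 0.0014, turned to -0.0246 against autosomes only, -0.0117 against the median of the others, -0.00139 by length classes, -0.0129 without fragments never captured and -0.00443 without fragments captured in all 6 libraries, and ranged from -0.0113 to 0.00737 with a library left out; no p-value passed. Contact windows in SS, SS13BN and both strains numbered 7, 5 and 3 in 1 Mb windows, 0, 0 and 0 at an adjusted p under 0.01, and 0, 1 and 0 without fragments captured in all 6, and length classes left 1 in SS. With a library left out they ranged from 2 to 8 in SS (5, 8 and 7 without SS 1, SS 2 and SS 3), from 3 to 13 in SS13BN (7, 5 and 13 without SS13BN 1, 2 and 3) and from 0 to 2 in both, where fewer libraries had to pass. Depleted windows in SS13BN numbered 5 by length classes, 4 at an adjusted p under 0.01 and 4 without fragments captured in all 6, and those in both strains 3 under each of the last 2. For these settings, contact and depleted windows were not counted over all chromosomes. High fragments numbered 2045 past a score of 3, 6454 in at least 5 libraries and 2348 without fragments captured in all 6, and low fragments 975, 5366 and 1444. Part 10 of the chromosome had a log2 ratio of 0.0458 by length classes and 0.0733 without fragments captured in all 6, and 0.0767 to 0.103 with a library left out, where 5 libraries allow no p under 0.0625. The scores by length classes also used windows cut at the ends of the chromosome. With them H4, L1, L2, L4, L6 and L11 were lost, and a low zone at chr4:193379814-193437298 was added. The loss of L1 and L11 is therefore not a matter of fragment length alone. With windows cut at the ends and at the interval without a listed EcoRI cut, L1 and L11 were lost and the other zones were found. The relative capture of H4 was 0.803 to 1.38 with a library left out, and that of L11 was 0.973 without fragments captured in all 6. By length classes, 33 of the 35 named windows and zones moved by less than 1 SD between libraries. H5, at 1.49, and H8, at 1.37, moved by more.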
